A study of Mus musculus and Homo sapiens with 30 samples.

Results

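MYC, its obligate partner MAX, the repressors that compete with MYC for MAX, and the glucose-responsive arrestins TXNIP and ARRDC4 were followed in cultured mammary cells given medium conditioned by fat cells. The set was named gene by gene: Myc, Max, Mxd1, Mxd3, Mxd4, Mxi1, Mnt, Mlx, Txnip and Arrdc4, which are 10 of the 56980 gene IDs of the mouse table. In the human table the set has 4 of 61552 IDs, MYC (ENSG00000136997), MXD4 (ENSG00000123933), MXI1 (ENSG00000119950) and TXNIP (ENSG00000265972). The set was in part chosen by a measured pattern, Mxd4 lower in E0771 and higher in NMuMG, so the mouse values of Mxd4 are given as a description with no test.

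The series has 30 poly(A) RNA libraries from 3 cell lines in 3 media. E0771, a mouse mammary cancer line, and NMuMG, a mouse mammary gland epithelial line, have 3 libraries per medium, and SkBr3, a human breast cancer line, has 4. Cells grew for 36 h and then spent 16 h in standard medium (control) or in medium made 50% from what lean or obese inguinal adipocytes had secreted. All lines were kept in DMEM with 10% serum. For NMuMG the labels also name insulin, at 10 mcg/ml, and glucose, at 4.5 g/L, and they name neither for the other lines. Each group is therefore 1 line in 1 medium. The labels list NMuMG among breast cancer cells, do not name the species of the adipocytes, and do not say whether replicates were separate cultures, so p-values measure only the spread between these libraries, which may be technical.

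Library totals were between 22929035 and 31094119 counts in E0771, between 23966897 and 29686456 in NMuMG, and between 18479433 and 29195499 in SkBr3. Levels below are counts per 1000000 counts of the library total after TMM adjustment (CPM). NMuMG libraries held the epithelial markers Cdh1 at 467 to 557 CPM and Krt18 at 2342 to 2784 CPM. In E0771, 4 of the 5 epithelial markers looked at (Cdh1, Epcam, Krt18 and Krt19) were at or below 0.29 CPM, while Krt8 was at 229 to 259 CPM. The summed level of 5 adipocyte markers was at most 2.19 CPM in any mouse library, and Lep was at 0 in all of them. Markers were not examined in SkBr3.

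MYC and MAX form a heterodimer that binds the E-box letters CACGTG and promotes transcription, above all of genes for ribosome production and growth. The MXD proteins (Mxd1, Mxd3, Mxd4 and Mxi1) and MNT also bind MAX and the same sequences, but recruit SIN3 and histone deacetylases and act as repressors. MLX is the partner of a parallel branch, the Mondo proteins MondoA (Mlxip) and ChREBP (Mlxipl), which sense phosphorylated sugars, and it can also pair with some MXD proteins and MNT. TXNIP binds thioredoxin and lowers glucose uptake by removing glucose transporters from the cell surface. It and its relative ARRDC4 are textbook targets of the Mondo-MLX dimer.

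The 5′ flanks of Txnip and Arrdc4 are shown because both genes moved together in NMuMG, and that of Mxd4 because its level differed most between the media in E0771. Each is the 250 bases before the transcription start, 5′ to 3′ on the gene's strand, from RefSeq on GRCm38.p6. Capitals mark CACGTG or CACGAG. They lie at chr3:96557707-96557956 (plus strand, Txnip), chr7:68749239-68749488 (minus strand, Arrdc4) and chr5:34187711-34187960 (minus strand, Mxd4).
Txnip: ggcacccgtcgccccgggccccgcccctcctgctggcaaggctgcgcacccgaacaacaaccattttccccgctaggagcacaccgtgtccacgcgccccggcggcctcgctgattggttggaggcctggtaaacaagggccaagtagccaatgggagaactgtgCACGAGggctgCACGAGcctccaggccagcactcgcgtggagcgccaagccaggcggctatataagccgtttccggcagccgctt
Arrdc4: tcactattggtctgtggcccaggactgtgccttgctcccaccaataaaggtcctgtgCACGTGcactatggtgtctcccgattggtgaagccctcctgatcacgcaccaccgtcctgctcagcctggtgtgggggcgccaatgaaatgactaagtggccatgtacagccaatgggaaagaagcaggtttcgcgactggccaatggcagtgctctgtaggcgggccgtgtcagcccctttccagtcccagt
Mxd4: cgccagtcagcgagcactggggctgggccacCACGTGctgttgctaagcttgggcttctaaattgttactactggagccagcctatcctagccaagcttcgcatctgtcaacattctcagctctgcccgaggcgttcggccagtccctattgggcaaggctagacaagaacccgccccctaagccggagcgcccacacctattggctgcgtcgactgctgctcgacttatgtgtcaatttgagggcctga

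Txnip has CACGAG at positions -85 to -80 and again at -74 to -69, counted from the transcription start. The pair matches the spaced pattern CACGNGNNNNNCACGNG, which was searched on both strands and overlaps the other motifs. Arrdc4 has CACGTG at -193 to -188 and Mxd4 has it at -219 to -214. Over windows of 250 bases before to 50 after the start, the spaced pattern was present in 16 of 32851 promoters (0.0487%), CACGTG in 2349 (7.15%) and CACGAG, on either strand, in 2127 (6.47%). A promoter entry was matched for 9 of the 10 genes. Of these 9, CACGTG was found in 5 (Arrdc4, Max, Mlx, Mnt and Mxd4), CACGAG in 2 (Mxd1 and Txnip) and the spaced pattern in Txnip. These matches describe the letters only.

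Before the media are compared, the control libraries give the starting balance of the network. Per kilobase of exon, the control level in E0771 ran from Myc (102 ± 5.47 CPM per kb, SD, n = 3) through Max (27.3 ± 1.29), Mlx (25.0 ± 1.04), Mnt (14.0 ± 1.10), Mxd3 (8.05 ± 0.611), Mxi1 (6.95 ± 0.143), Txnip (4.12 ± 0.457) and Mxd4 (4.09 ± 0.220) to Mxd1 (1.12 ± 0.0911). By this measure the Myc transcript stood well above that of every partner and competitor in that line. Max was only slightly above Mlx, and the levels of Txnip and Mxd4 were within their spread of each other. In NMuMG the order of the control levels per kilobase was Myc (32.8 ± 1.12), Mlx (17.3 ± 0.646), Txnip (15.5 ± 0.524), Max (15.2 ± 0.615), Mnt (9.63 ± 0.341), Mxi1 (5.32 ± 0.0615), Mxd3 (4.81 ± 0.448), Arrdc4 (4.28 ± 0.157), Mxd4 (4.01 ± 0.103) and Mxd1 (1.22 ± 0.0718). Txnip and Max did not differ beyond their spread there, nor did Mxd3 and Arrdc4.

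E0771 in control medium had more Myc and far less Txnip than NMuMG. All 8 genes that could be tested differed between the lines (edgeR quasi-likelihood test on the 18 mouse libraries, Benjamini-Hochberg adjusted over 16529 genes), where 80.5% of all genes were called. The log2 difference, E0771 over NMuMG, was 1.52 for Myc (adjusted p = 1.37e-30), 0.73 for Max (5.45e-18), 0.62 for Mxd3 (5.00e-08), 0.41 for Mnt (1.10e-08), 0.41 for Mlx (8.59e-09) and 0.26 for Mxi1 (2.84e-05). Txnip went the other way, at -2.03 (1.79e-18), and Mxd1 at -0.25 (0.0185). The Mxd1 call was lost when any of 4 control libraries was left out (E0771 replicate 1 or 2, or NMuMG replicate 1 or 2), with adjusted p between 0.0558 and 0.0823. Arrdc4 had 0 counts in all 9 E0771 libraries, although it was clearly present in NMuMG. Against a floor of 3 counts in the smallest E0771 library of each medium, it was at least 132-fold higher in NMuMG in control medium, 90.7-fold in lean and 128-fold in obese secretome. Line and growth medium, with any difference in glucose or insulin, cannot be told apart here.

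**Figure D1:**
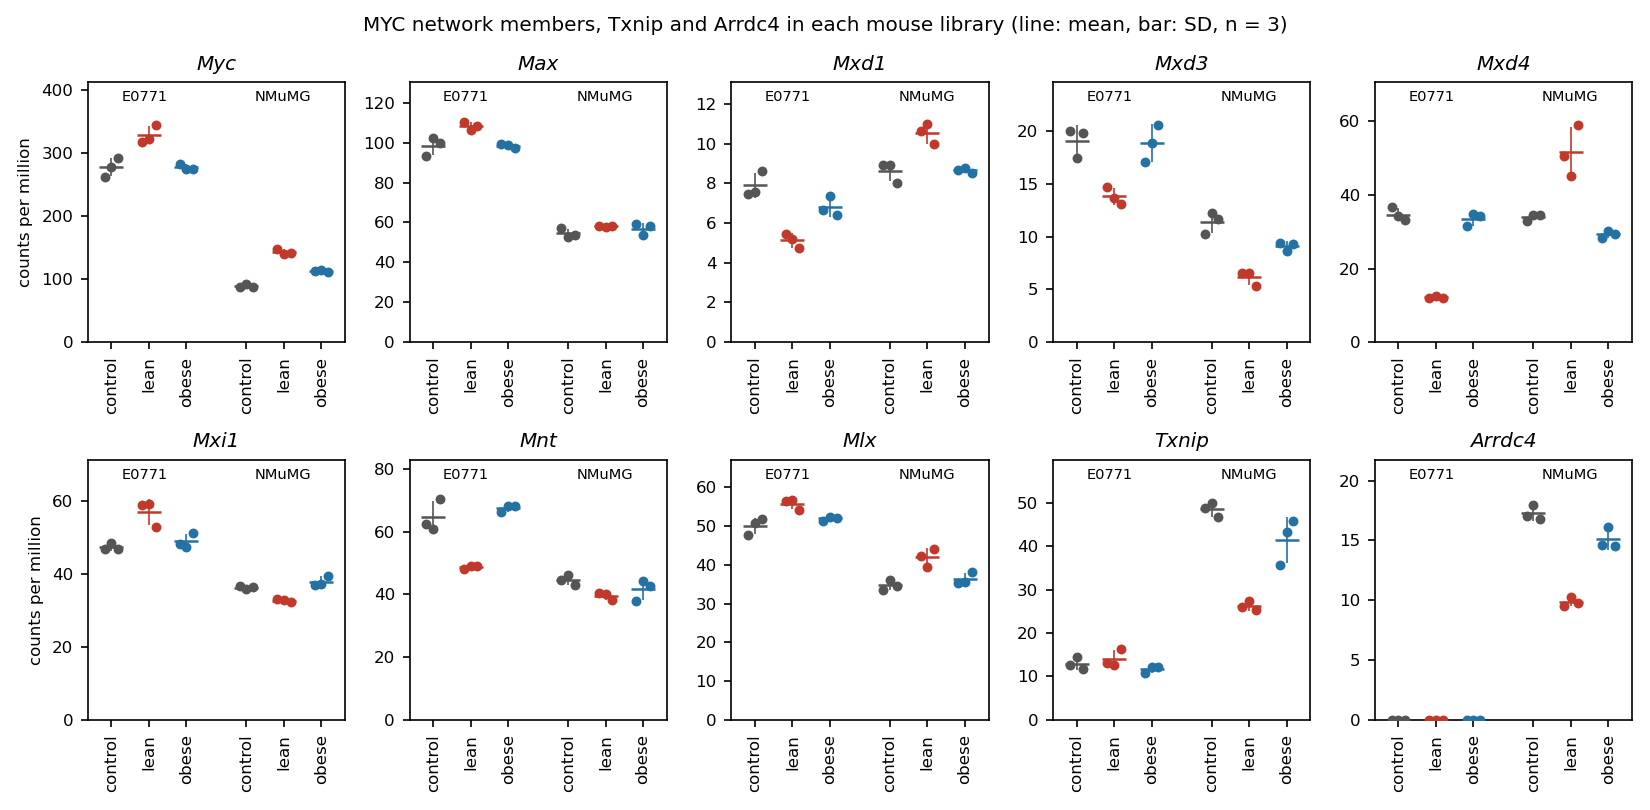
Level of each gene in every mouse library in CPM, by line and medium. Points are libraries, horizontal lines group means and vertical bars the SD (n = 3). Mxd4 sits between 12.0 and 12.7 CPM in E0771 lean secretome and between 45.1 and 59.0 CPM in NMuMG lean secretome, and Arrdc4 is at 0 in E0771.

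Lean secretome went with more Myc in both mouse lines. In E0771 the 3 control libraries had 263, 279 and 293 CPM of Myc, those in lean secretome 318, 323 and 346, and those in obese secretome 283, 275 and 276. All lean libraries were above all others, and obese and control libraries overlapped. Myc rose by 0.24 on the log2 scale over control (SE 0.0419, edgeR adjusted p = 2.54e-05) and by 0.24 over obese (adjusted p = 2.65e-05). In these bulk cultures, a change in the number of cells with a transcript and a change in RNA per cell cannot be told apart.

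NMuMG began from a lower Myc level and showed steps between all 3 media. Its control libraries had 87.4, 92.7 and 87.5 CPM, its lean libraries 149, 140 and 142, and its obese libraries 114, 114 and 112. No groups overlapped. Myc rose 1.61-fold in lean over control (log2 fold change 0.69, SE 0.0382, edgeR adjusted p = 4.29e-16), by 0.34 in lean over obese (5.58e-09) and by 0.34 in obese over control (2.07e-07).

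Max, the shared partner of MYC and the MXD proteins, moved little. E0771 had 93.2, 102 and 99.7 CPM in control, 110, 106 and 108 in lean and 99.5, 99.1 and 97.1 in obese secretome. The rise of 0.14 over control (edgeR adjusted p = 0.0103) was lost without control replicate 1 (0.10, adjusted p = 0.0838), and that of 0.13 over obese (0.0127) without lean replicate 1 (0.0518) or obese replicate 3 (0.0590). NMuMG had 57.1, 52.9 and 53.8 CPM in control, 58.3, 57.9 and 58.4 in lean and 59.1, 53.7 and 58.2 in obese secretome, and no difference passed the test (lean over control 0.09, adjusted p = 0.13).

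Mxd4, an MXD repressor known from differentiating cells, was the gene whose pattern entered the choice of the set. In E0771 it stood at 36.7, 34.2 and 33.1 CPM in control, 12.0, 12.7 and 12.0 in lean and 31.5, 34.9 and 34.3 in obese secretome. The lean level was 0.35 of the control level (log2 difference -1.50) and the log2 difference of lean from obese was -1.46. NMuMG began at a similar level, 33.0, 34.6 and 34.5 CPM in control. It had 50.7, 45.1 and 59.0 CPM in lean secretome and 28.4, 30.2 and 29.3 in obese. There the log2 difference of lean was 0.60 from control and 0.81 from obese, and the obese libraries were all under the control libraries (-0.22).

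Mxd1, the founding MXD repressor, also went opposite ways in the lines. E0771 had 7.47, 7.57 and 8.63 CPM of Mxd1 in control, 5.47, 5.18 and 4.73 in lean and 6.65, 7.36 and 6.41 in obese secretome. It fell by 0.62 on the log2 scale in lean over control (SE 0.116, edgeR adjusted p = 6.67e-05) and by 0.41 over obese (0.00494). In NMuMG the values were 8.93, 8.90 and 8.04 CPM in control, 10.6, 11.0 and 9.95 in lean and 8.67, 8.78 and 8.51 in obese secretome. It rose there by 0.29 over control (edgeR adjusted p = 0.0110) and by 0.28 over obese (0.0151). These rises were lost without lean replicate 2 (0.0532 over control, 0.0642 over obese), and that over control also without control replicate 3 (0.0676).

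Mxd3, the MXD member that is known for expression in dividing cells, fell in both lines. E0771 libraries had 20.0, 17.4 and 19.8 CPM in control, 14.6, 13.6 and 13.1 in lean and 17.0, 18.9 and 20.6 in obese secretome. NMuMG libraries had 10.2, 12.3 and 11.7 CPM in control, 6.54, 6.57 and 5.29 in lean and 9.39, 8.61 and 9.31 in obese secretome. In each line the lean libraries were below all the others. Mxd3 fell by 0.47 in E0771 (SE 0.0854, edgeR adjusted p = 5.07e-05) and by 0.89 in NMuMG (SE 0.103, adjusted p = 1.08e-08) in lean over control. Over obese it fell by 0.45 in E0771 (8.07e-05) and by 0.57 in NMuMG (7.22e-05).

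Mxi1, the second MXD member in the older numbering, showed small shifts of opposite sign. It stood at 46.7, 48.5 and 47.0 CPM in E0771 control, 58.9, 59.2 and 52.9 in lean and 48.3, 47.3 and 51.3 in obese secretome. NMuMG had 36.7, 35.8 and 36.3 CPM in control, 33.0, 32.8 and 32.2 in lean and 36.9, 37.2 and 39.5 in obese secretome. The lean libraries were the highest in E0771 and the lowest in NMuMG. The rise in E0771 was 0.26 over control (edgeR adjusted p = 0.00024) and 0.22 over obese (0.00174). In NMuMG Mxi1 fell by 0.15 over control (adjusted p = 0.0220) and by 0.21 over obese (0.00168), and the former call was lost without control replicate 1 or 3 or lean replicate 3 (adjusted p between 0.0526 and 0.0696).

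Mnt, a broadly expressed MAX-binding repressor, fell with lean secretome in E0771. The control libraries had 62.4, 60.9 and 70.4 CPM, the lean libraries 47.9, 48.9 and 49.1, and the obese libraries 66.1, 68.3 and 68.2. The fall was 0.41 over control (SE 0.0543, edgeR adjusted p = 6.97e-07) and 0.47 over obese (8.67e-08). NMuMG had 44.6, 46.1 and 42.9 CPM in control, 40.5, 40.0 and 38.2 in lean and 37.9, 44.4 and 42.5 in obese secretome. Mnt fell there by 0.17 over control (adjusted p = 0.0130), a call lost without control replicate 2 or lean replicate 3 (0.0700 and 0.0582), and lean overlapped obese (-0.07, adjusted p = 0.336).

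Among the members tested, 7 of 8 were called in E0771 in lean over control, where 56.3% of all genes were called, and 7 of 8 in lean over obese, against 52.7%. In NMuMG 8 of 9 were called in lean over control, against 38.2% of all genes, and 7 of 9 in lean over obese, against 35.0%. Both lean comparisons within a line share the lean libraries. The members were chosen with earlier results of these data known, so these counts describe the set and do not test it.

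Mlx, the partner of the Mondo proteins, was a little higher in lean secretome. E0771 had 47.7, 50.7 and 51.7 CPM in control, 56.4, 56.7 and 54.2 in lean and 51.3, 52.4 and 52.2 in obese secretome. Mlx rose there by 0.16 over control (edgeR adjusted p = 0.0106), a call lost without control replicate 1 (0.12, 0.0701), and its difference of 0.10 from obese did not pass (0.0965). NMuMG had 33.4, 36.0 and 34.6 CPM in control, 42.1, 39.4 and 44.2 in lean and 35.2, 35.5 and 38.0 in obese secretome. There Mlx rose by 0.27 over control (0.00012) and by 0.21 over obese (0.00312).

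Txnip and Arrdc4 fell together in NMuMG in lean secretome. Txnip had 48.7, 49.9 and 46.7 CPM in control, 25.9, 27.4 and 25.2 in lean and 35.5, 43.2 and 45.7 in obese secretome. The lean libraries were well below both other groups, and obese replicate 1 was nearest to them. Txnip fell by 0.89 over control (SE 0.0682, edgeR adjusted p = 1.18e-10) and by 0.67 over obese (4.10e-08). Arrdc4 had 17.1, 18.0 and 16.8 CPM in control, 9.54, 10.2 and 9.76 in lean and 14.6, 16.2 and 14.5 in obese secretome. It fell by 0.81 over control (SE 0.0793, adjusted p = 2.64e-10) and by 0.62 over obese (2.30e-07).

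E0771, in which Txnip was low from the start, showed no such fall. Its libraries had 12.6, 14.4 and 11.6 CPM of Txnip in control, 13.1, 12.7 and 16.3 in lean and 10.7, 12.2 and 12.1 in obese secretome. Lean and control overlapped (0.13, SE 0.102, edgeR adjusted p = 0.309). Lean was above obese by 0.27 (adjusted p = 0.0321), a call that was lost without lean replicate 3 (0.14, 0.254) or obese replicate 1 (0.21, 0.142).

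In E0771 obese secretome differed little from control medium for these genes, while in NMuMG some of them differed. None of the 8 members tested was called in E0771 with edgeR or DESeq2, and 0 had an unadjusted p under 0.05, where edgeR called 2.61% of all genes. In NMuMG 1 of the 9 members tested was higher and 3 were lower at an unadjusted p under 0.05. Of the 9, 2 were called, against 5.01% of all genes. These were Myc, given above, and Txnip, which fell by 0.22 (adjusted p = 0.0489). The Txnip call was lost with DESeq2 (0.0549), with its size factors in edgeR (0.0564) and in a fit of only the 2 groups (0.0994). It was also lost on leaving out 5 of the 6 libraries compared, all but obese replicate 3. Without obese replicate 1 the difference was -0.12 (0.324). Mxd3 just missed (-0.32, edgeR adjusted p = 0.0502), and Arrdc4 had -0.19 (0.149). Mxd3 was called with no low-count filter (0.0438), without control replicate 1 (0.0381) and in a fit of only the 2 groups (0.0361).

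**Figure D2:**
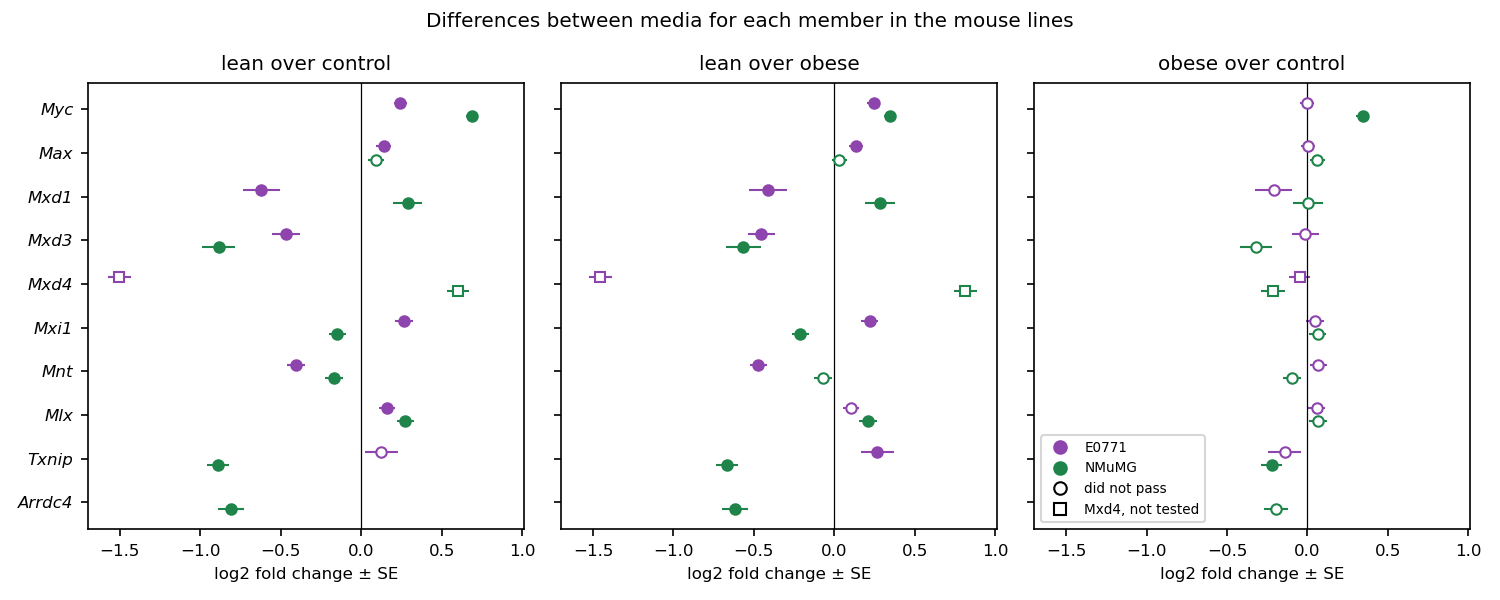
Log2 fold change with its standard error for each gene between media in E0771 (purple) and NMuMG (green). Filled points passed an edgeR adjusted p under 0.05, open circles did not, and squares mark Mxd4, which was not tested. Mxd1 and Mxi1 lie on opposite sides of 0 in the lines in both lean panels, Mxd3 is below 0 in both lines there, and Arrdc4 has no E0771 point because its counts are 0.

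The difference between the responses of the lines was itself tested. For lean over control 6 of 8 members had a different response in E0771 and NMuMG, where 34.5% of all genes were called. Relative to NMuMG, the E0771 response was lower for Myc (-0.42, SE 0.0581, edgeR adjusted p = 1.97e-07), Mxd1 (-0.88, SE 0.143, 3.45e-06) and Mnt (-0.21, 0.0351), and higher for Txnip (1.04, SE 0.132, 2.85e-07), Mxd3 (0.45, 0.00844) and Mxi1 (0.44, 1.00e-05). Myc and Mxd3 thus moved in the same direction in both lines but further in NMuMG on the log2 scale, while Mxd1 and Mxi1 moved in opposite directions. In CPM the steps of Myc and Mxd3 were of similar size. Mean Myc went from 278 to 329 CPM in E0771 and from 89.2 to 144 in NMuMG. Mean Mxd3 went from 19.1 to 13.8 CPM in E0771 and from 11.4 to 6.13 in NMuMG. The Mnt difference was lost when any of 7 of the 12 libraries was left out (E0771 control replicate 3, E0771 lean replicates 1 and 2, NMuMG control replicates 1 and 3 and NMuMG lean replicates 1 and 2), with adjusted p up to 0.171. The Mxd3 difference was lost without NMuMG lean replicate 3 (0.33, 0.0725).

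For lean over obese 4 of 8 differed between the lines, against 34.2% of all genes. They were Txnip (0.95, edgeR adjusted p = 1.53e-06), Mxd1 (-0.68, 0.00023), Mxi1 (0.45, 8.33e-06) and Mnt (-0.38, 0.000158). The Myc difference of -0.08 did not pass (0.29). For obese over control 1 of 8 differed, Myc (-0.33, 0.000895), against 1.69% of all genes. Max and Mlx did not pass in any of the 3 comparisons, with differences between -0.09 and 0.12 and adjusted p from 0.158 to 1.

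In SkBr3 the clearest differences in lean secretome were a rise of MXI1 and a fall of TXNIP. MXI1 had 9.57, 9.35, 9.27 and 9.85 CPM in control, 18.0, 16.6, 12.3 and 17.6 in lean and 10.4, 9.36, 11.5 and 10.4 in obese secretome. Every lean library was above every other one, and lean replicate 3 was the lowest of them. MXI1 rose 1.70-fold over control (log2 fold change 0.77, SE 0.0997, edgeR adjusted p = 1.69e-06) and by 0.63 over obese (2.21e-05).

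TXNIP had 114, 104, 108 and 114 CPM in control, 90.2, 83.8, 95.8 and 78.6 in lean and 105, 116, 118 and 108 in obese secretome. All lean libraries were below all others. It fell by 0.34 over control (SE 0.0538, edgeR adjusted p = 2.87e-05) and by 0.36 over obese (1.95e-05). Of the lines with measurable TXNIP, NMuMG and SkBr3 had a fall in lean over control, and in E0771 the difference did not pass; the human and mouse responses were not tested against each other.

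MYC did not rise in SkBr3. It had 199, 195, 200 and 185 CPM in control, 187, 170, 202 and 174 in lean and 206, 195, 192 and 216 in obese secretome, so the groups overlapped. Lean over control was -0.09 (edgeR adjusted p = 0.14), and without lean replicate 3 it was -0.14 (0.00438). MYC fell by 0.14 in lean over obese (0.0214), a call lost without lean replicate 2 or 4 or obese replicate 1 or 4 (adjusted p between 0.0632 and 0.1).

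MXD4 in SkBr3 showed neither the large drop of E0771 nor the increase of NMuMG. It had 23.4, 26.1, 25.2 and 25.6 CPM in control, 26.3, 28.1, 28.4 and 28.0 in lean and 28.4, 29.3, 26.2 and 28.0 in obese secretome. The rise of 0.14 in lean over control (edgeR adjusted p = 0.0457) was lost without the low-count filter (0.121) and on leaving out control replicate 1, 3 or 4 or lean replicate 2, 3 or 4 (0.0569 to 0.172). Lean over obese was -0.01 (0.859). In all, 3 of the 4 IDs were called in lean over control and 3 of 4 in lean over obese, where 48.8% and 44.1% of all genes were called. For obese over control 0 of 4 were called with edgeR or DESeq2, 1 had an unadjusted p under 0.05, and 1.16% of all genes were called.

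**Figure D3:**
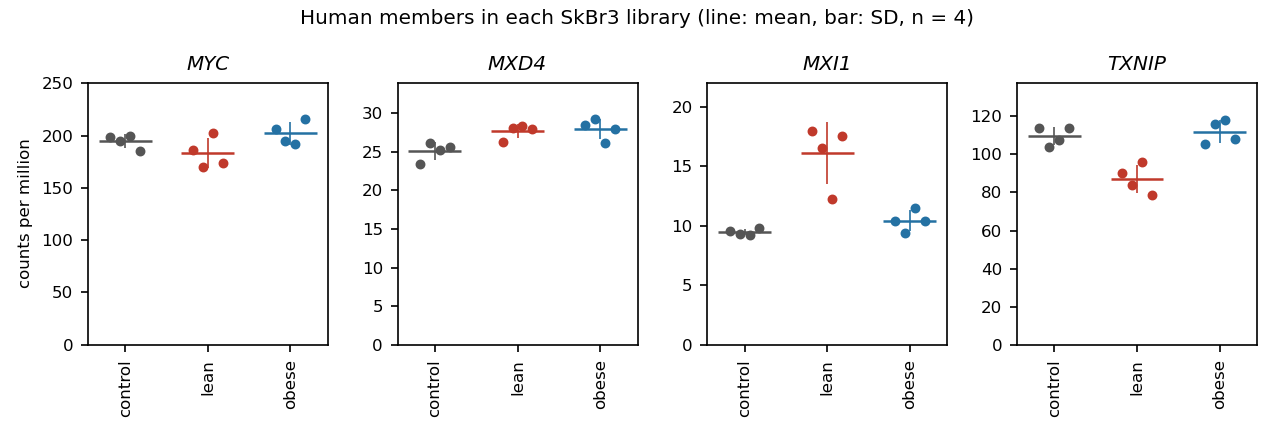
Level of the 4 human genes in every SkBr3 library in CPM, by medium. Points are libraries, horizontal lines group means and vertical bars the SD (n = 4). The lean libraries lie between 12.3 and 18.0 CPM for MXI1 and between 78.6 and 95.8 CPM for TXNIP, outside the range of the other media.

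Genes that MYC is known to drive were then counted in the mouse lines. This list and those that follow were written with earlier results of these data known, so their counts are a description. In a list of 17 nucleolar and ribosome assembly genes, 16 rose in E0771 in lean over control and 16 in lean over obese, with medians of 0.40 and 0.38 against -0.01 and 0.00 over all genes tested. Among all genes, 27.3% were called higher and 29.0% lower in the first comparison, and 25.8% higher in the second. The largest rises over control were in Rrp9 (0.75, edgeR adjusted p = 1.27e-11), a snoRNP protein, Nop2 (0.60, 4.56e-11), an rRNA methyltransferase, and Polr1b (0.53, 1.63e-09), a subunit of RNA polymerase I. Rrp9 went from 79.1 to 85.7 CPM in control to 133 to 145 in lean secretome. Only Fbl, the snoRNA-guided methyltransferase fibrillarin, was not called (-0.03).

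NMuMG, in which Myc itself rose further over control on the log2 scale, showed no such shift of the nucleolar list in lean secretome. There 4 of 17 rose and 5 fell in lean over control (median 0.04, against 0.00 over all genes), where 19.1% of all genes were called higher and 19.1% lower. The largest changes were Rrp12 (-0.19, edgeR adjusted p = 0.000138), Rrp9 (0.18, 0.00127) and Fbl (-0.16, 0.000421). The count of 4 rises was 2 without control replicate 1 or 2, and 1 without control replicate 3 or lean replicate 1 or 2. In lean over obese 10 of 17 fell, among them Ncl (-0.29, 5.00e-09), the nucleolar protein nucleolin, and Npm1 (-0.30, 3.86e-08), nucleophosmin; 17.4% of all genes were called lower. Ncl and Npm1 belong to the list of 17 and were named here after their values were seen.

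In obese over control, 8 of the 17 nucleolar genes rose in NMuMG (median 0.13), where 2.34% of all genes were called higher. Gnl3, which encodes nucleostemin, had the largest rise (0.24, edgeR adjusted p = 8.56e-05) and was named after its value was seen. The count was 5 without NMuMG control replicate 2. In E0771 0 of 17 were called with edgeR or DESeq2 and 1 had an unadjusted p under 0.05. Between the lines, 16 of 17 responded more in E0771 than in NMuMG in lean over control, and 17 of 17 in lean over obese, where 19.4% and 18.8% of all genes were called in that direction. In obese over control 2 of 17 responded less in E0771, against 0.623% of all genes.

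**Figure D4:**
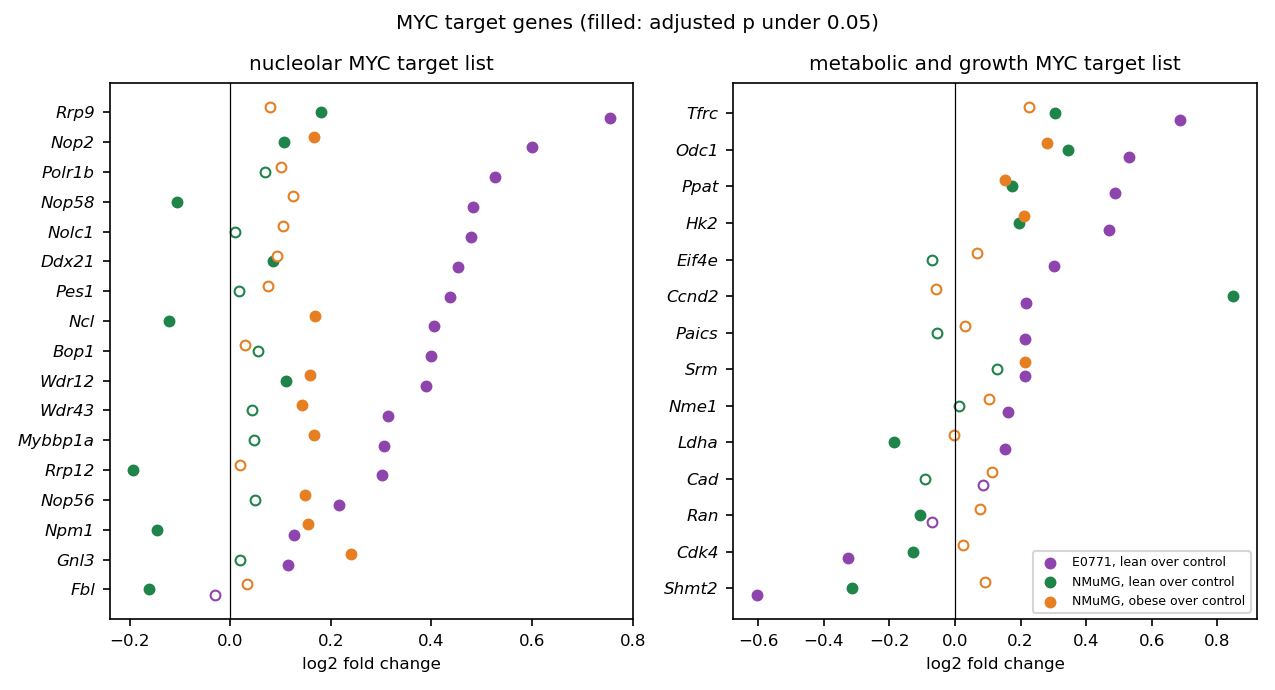
Log2 fold change of the genes of the nucleolar (17 genes) and the metabolic and growth (14 genes) MYC target lists, for lean over control in E0771 (purple) and NMuMG (green) and obese over control in NMuMG (orange). Filled points passed an edgeR adjusted p under 0.05. In the nucleolar list 16 purple points are filled and right of 0, while 4 green points are filled right of 0 and 5 left of it.

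A list of 14 metabolic and growth targets was more mixed. In E0771 10 rose and 2 fell in lean over control (median 0.21), where 27.3% of all genes were called higher and 29.0% lower. Tfrc, the transferrin receptor, rose by 0.69 (edgeR adjusted p = 8.10e-08), and Odc1, which makes putrescine for polyamines, rose by 0.53 (6.91e-11). Shmt2, the mitochondrial serine hydroxymethyltransferase, fell by 0.60 (2.68e-12), so the list did not move as one. In NMuMG 5 rose and 4 fell (median -0.02), where 19.1% of all genes were called in each direction. There Ccnd2, cyclin D2, rose by 0.85 (4.04e-17), Odc1 rose by 0.35 (1.65e-08) and Shmt2 fell by 0.31 (0.00256). Ccnd2 went from 189 to 200 CPM in NMuMG control to 340 to 371 in lean secretome. E0771 had 10 rises and 3 falls in lean over obese, where 25.8% of all genes were called higher and 52.7% in either direction. In lean over obese 7 of 14 were called in NMuMG, where 35.0% of all genes were: 1 rose (2 without obese replicate 1) and 6 fell (median -0.09), with 17.4% of all genes called lower. In obese over control 4 of 14 rose in NMuMG, where 2.34% of all genes were called higher. They were Odc1, Hk2, Srm and Ppat, which were named after their values were seen. The count was 2 without NMuMG obese replicate 3. In lean over control, 9 of the 14 responded more in E0771 than in NMuMG and 3 less. Among all genes 19.4% were called in the first direction and 34.5% in either. In lean over obese 10 responded more in E0771 and 2 less, against 18.8% and 34.2% of all genes.

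The cofactors of both arms (12 genes) changed in both directions. In E0771 5 rose and 3 fell in lean over control, against 27.3% of all genes called higher and 29.0% lower, so the falls were near the share of all genes. Zbtb17, which encodes the MYC-binding protein MIZ1, rose by 0.57 (edgeR adjusted p = 1.27e-08), from 30.5 to 33.3 CPM to 44.9 to 49.2. Ep400 and Trrap, subunits of an acetyltransferase complex that MYC recruits, fell by 0.54 (3.69e-05) and 0.42 (0.0106). In NMuMG 1 rose and 3 fell (1 fall on leaving out control replicate 1 or 2 or any lean replicate, and 2 rises without control replicate 2 or lean replicate 2), with Kat5, the catalytic subunit of that complex, at -0.23 (0.000294), the SIN3 scaffold Sin3b at 0.17 (0.000815) and Hdac1 at -0.10 (0.0325). Among all genes of that comparison 19.1% were called in each direction.

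Of 7 genes that set MYC protein stability, 3 fell in E0771 in lean over control (1 without lean replicate 1), where 29.0% of all genes were called lower. These were Huwe1, a ubiquitin ligase, by 0.34 (edgeR adjusted p = 0.0136), Aurka, the mitotic kinase Aurora A, by 0.13 (0.0117), and Gsk3b, a kinase that marks MYC for degradation, by 0.12 (0.0347). No gene of the 7 was called higher there with edgeR or DESeq2, 1 was higher at an unadjusted p under 0.05, and 1 was called without control replicate 1 or with DESeq2's size factors in edgeR. In NMuMG, where 19.1% of all genes were called lower, 3 fell, Cip2a (-0.75, 5.18e-13), an inhibitor of the phosphatase PP2A, Aurka (-0.55, 2.03e-08) and Usp28 (-0.31, 0.000137), a deubiquitinase, and 0 were called higher with either tool (1 at an unadjusted p under 0.05). Cip2a went from 148 to 164 CPM in control to 88.1 to 102 in lean secretome. MYC protein was not measured.

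Of the further network members, MondoA and ChREBP differ in where they are expressed. Mlxip, the MondoA gene, was at 76.6 to 92.1 CPM in E0771 and 62.8 to 74.6 in NMuMG, and its difference between lean and control passed in neither line (-0.05, edgeR adjusted p = 0.432, and 0.05, 0.496). Mlxipl, the ChREBP gene, was at or below 0.0787 CPM in E0771. In NMuMG it stood at 6.53 to 8.98 CPM and fell by 0.28 in lean over control (0.0359). Mycn, the MYC paralog of the developing nervous system, was at 0 in E0771 and fell by 1.02 in NMuMG (0.00101), from 1.97 ± 0.348 CPM (SD, n = 3) to 0.975 ± 0.234. In NMuMG 2 of 5 tested thus fell, where 19.1% of all genes were called lower. The count of 2 falls in NMuMG was 1 with DESeq2, with no low-count filter, and without control replicate 1 or 2 or lean replicate 2 or 3. Of 5 such genes, 3 were tested in E0771 and 0 were called in lean over control with edgeR or DESeq2, with 0 at an unadjusted p under 0.05. Among all genes, edgeR called 56.3% in that comparison. Mga, the large MAX-binding repressor, and Mycl passed in neither line in that comparison.

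Of 4 other alpha-arrestins, 3 were tested in each line. In NMuMG Arrdc1 rose by 0.22 in lean over control (edgeR adjusted p = 0.00339). Arrdc2 (-0.08) and Arrdc3 (-0.18, adjusted p = 0.0832, unadjusted 0.0355) did not pass, and their differences were not tested against those of Txnip and Arrdc4. In E0771 Arrdc2 rose by 0.30 (0.00281) and Arrdc3, which acts on adrenergic receptors, fell by 0.16 (0.0369), a call that was not made with DESeq2, with no filter on low counts, in a fit of only the 2 groups, or on leaving out control replicate 2 or lean replicate 2 or 3. Arrdc5 was at or near 0 in both lines.

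Genes of the thioredoxin system and of glucose entry moved in both lines. In E0771 8 of 11 tested rose and 2 fell in lean over control (median 0.44), where 27.3% of all genes were called higher and 29.0% lower. In NMuMG 7 of 10 rose and 3 fell (median 0.22), against 19.1% in each direction. Txnrd1, cytosolic thioredoxin reductase, rose by 0.98 in E0771 (edgeR adjusted p = 0.000141) and by 0.92 in NMuMG (0.000868). Slc2a1, the glucose transporter GLUT1 that TXNIP removes from the surface, rose by 0.97 in E0771 (3.40e-07), from 135 to 147 CPM to 262 to 281. In NMuMG it rose by 0.56 (1.83e-12), from 75.7 to 77.3 CPM to 106 to 118. The Txnip transcript fell in NMuMG, and its difference in E0771 did not pass the test. GLUT1 protein at the cell surface was not measured, and a link between these genes was not tested. Nedd4l, a ubiquitin ligase of the family that binds arrestins, rose by 0.81 in E0771 (1.48e-11), and Txn1, cytosolic thioredoxin, rose by 0.45 in NMuMG (7.82e-06).

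Summed levels of epithelial, mesenchymal and matrix markers also differed between lean secretome and control medium, though not every marker was called. In E0771 Col1a1 was at 640 to 727 CPM in control, 190 to 219 in lean and 418 to 608 in obese secretome. The summed level of the 4 fibroblast markers was 862 to 943 CPM in control, most of it Col1a1. It was 370 to 394 CPM in lean and 624 to 840 in obese secretome. Of the 3 fibroblast markers tested in E0771, edgeR called 2 lower in lean over control, where 29.0% of all genes were called lower. The summed level of the 4 mesenchymal markers in E0771 was 3075 to 3195 CPM in control, 1957 to 2190 in lean and 2891 to 3007 in obese secretome, nearly all of it Vim, the intermediate filament vimentin. In NMuMG it was 3531 to 3685 CPM in control, 2966 to 3113 in lean and 3555 to 3708 in obese secretome, where Fn1, fibronectin, had 1489 to 1578 CPM in control and 881 to 1028 in lean secretome. The 4 mesenchymal markers did not fall together there. In lean over control edgeR called 1 higher and 1 lower (median log2 fold change -0.005), where 19.1% of all genes were called in each direction. In NMuMG the summed epithelial markers were at 7070 to 7502 CPM in control, 7806 to 8026 in lean and 6735 to 7114 in obese secretome. Of these 5 markers, edgeR called 2 higher in NMuMG lean over control, where 19.1% of all genes were called higher. In E0771 only 1 of them was tested, and it was not called in lean over control (-0.06). Of the adipocyte markers, Cidec was at 1.98 to 2.08 CPM in NMuMG lean libraries and 0.320 to 0.688 in control, while Adipoq, Plin1 and Lep were at or near 0. The part of these shifts in the results on the MYC network was not tested.

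To see which genes had patterns closest to Mxd4 and Txnip, log2 CPM values were centred within each line and correlated over the 18 mouse libraries, across 9499 genes. The closest to Mxd4 were Gsn (Pearson r = 0.977), Thsd4 (0.976), Amdhd2 (0.972), Hps1 (0.969) and Selenbp1 (0.969). Mean log2 CPM of Selenbp1 differed by -1.96 between lean and control in E0771 and by 0.49 in NMuMG. The closest to Txnip were Acta2 (0.936), Nr2f2 (0.930), Tacc1 (0.928), Ap1ar (0.924) and Mt1 (0.922). Acta2, smooth muscle actin, differed by -2.29 between lean and control in NMuMG and by 0.67 in E0771. These libraries share their group, so the values describe likeness of pattern across 6 groups.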

How the data were processed

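The authors deposited raw counts per Ensembl gene ID, 1 mouse and 1 human table, with no normalization. Per the submitters' processing notes the tools were cutadapt 1.16, STAR 2.7.9a and featureCounts 1.6.3; the notes name GRCm39, and the build of the human table and the strand setting are not given in the sources used here. Mouse symbols (52073 of 56980 IDs, 99.68% of counts) and exon lengths came from GENCODE M21; human genes were taken by ID. The members and gene lists were chosen with earlier results of these data known. One gene of the MYC stability list is not reported here, and its counts leave it out.

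Libraries were grouped by line and medium as labelled. The libraries of each line, in all 3 media, were given their own edgeR 4.0.16 model (R 4.3.3) with filterByExpr, TMM factors (0.987 to 1.02) and a robust quasi-likelihood fit. The numbers of genes tested were 13813 (E0771), 15014 (NMuMG) and 14874 (SkBr3). The filter passed 9 of 10 members in E0771, 10 of 10 in NMuMG and 4 of 4 in SkBr3. Responses of the mouse lines were compared in 1 fit of 18 libraries. P-values were Benjamini-Hochberg adjusted over all genes of a comparison and called under 0.05. Scripts were tested on simulated data. Intervals of counting are not given, and counts are reads without molecular identifiers. Replicates of a group differed by 1.93 to 13.7 times the variance of counting (chi-square per degree of freedom, 36 pairs), so no pair differed by counting alone. These values cannot tell separate cultures from technical replicates. The highest values, 9.46, 10.5 and 13.7, were those of SkBr3 lean replicate 3 against the other lean libraries.

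The report names all members; in each list the 3 called genes with the largest lean over control change per line; and the 5 genes most like Mxd4 and Txnip (mean log2 CPM of at least 2, with a prior count of 2). Alternatives were DESeq2 1.42.0, its size factors in edgeR, no low-count filter, a replicate block, only the 2 groups compared and leaving out each library.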

Additional observations from a re-analysis of the deposited data

Results flagged for a closer look

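The responses of E0771 and NMuMG differed for these members by the edgeR test of the difference itself (E0771 minus NMuMG, log2 scale). In lean over control the differences were -0.42 for Myc, -0.88 for Mxd1, 0.45 for Mxd3, 0.44 for Mxi1, -0.21 for Mnt and 1.04 for Txnip. In lean over obese they were -0.68 for Mxd1, 0.45 for Mxi1, -0.38 for Mnt and 0.95 for Txnip. In obese over control Myc differed by -0.33. No group of 4 SkBr3 libraries held a member value standing apart from the others by Dixon's test; groups of 3 were not tested.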

How the results depend on the processing

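No alternative reversed a member difference that was called; the differences that changed sign were all uncalled and near 0. In E0771 obese over control, Myc was 0.0048 with DESeq2, 0.0048 with its size factors and 0.0045 with no low-count filter, and leaving out single libraries gave -0.040 to 0.050 for Myc, -0.035 to 0.032 for Max and -0.084 to 0.051 for Mxd3. Other leave-one-out ranges that crossed 0 were -0.00074 to 0.21 for Txnip in E0771 lean over control, -0.010 to 0.058 for Max in NMuMG lean over obese, -0.043 to 0.030 for Mxd1 in NMuMG obese over control and -0.043 to 0.0092 for MXD4 in SkBr3 lean over obese. For the line difference in obese over control they were -0.042 to 0.035 for Mlx, -0.046 to 0.026 for Mxi1 and -0.011 to 0.18 for Txnip. Mlx there was 0.0035 with DESeq2, 0.0036 with its size factors, 0.0011 with no filter and 0.00090 with the replicate block. The cause of these changes was not tested.

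Members called in NMuMG obese over control were 2 as reported, 1 with DESeq2 or its size factors and 1 to 3 over all alternatives. Nucleolar genes called higher in NMuMG lean over control were 4 as reported, 2 with no filter and 1 to 4 without single libraries; in NMuMG lean over obese they were 0 to 1, and in obese over control 5 to 10.

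The number of genes called over the whole table moved most in obese over control. In E0771 it was 360 as reported, 626 with no filter and 79 to 498 without single libraries. In NMuMG it was 752, and 384 to 893 without single libraries. In SkBr3 it was 172, with 539 under no filter, 384 with DESeq2, 849 in a fit of only the 2 groups and 20 to 374 without single libraries. For the line difference it was 279, with 428 under no filter, 422 with DESeq2 and 149 to 360 without single libraries.

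Same-numbered replicates of different media did not deviate together (correlations of -0.0942 to 0.110 over 9 pairs in E0771, -0.0285 to 0.0250 over 9 in NMuMG and -0.0452 to 0.0523 over 12 in SkBr3), so the numbers were not taken as pairs. A replicate block changed no member call, and gave 7636 genes called against 7770 in E0771 lean over control, 5652 against 5731 in NMuMG and 7138 against 7254 in SkBr3. Depth limits Mxd1 (4.73 to 11.0 CPM in both mouse lines) and Mxd3 in NMuMG (5.29 to 12.3 CPM) in particular.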
